A study of Mus musculus with 2 samples.

Results

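The solute carriers described here are 117 mouse genes whose symbol is Slc, a family number, the letter a and a member number, and whose log2 value averaged 5 or more over the 2 arrays. They come from 238 such genes that the array measures on a probe set assigned to no other gene. In all it measures 12393 genes in that way, of which 7262 reached the same level. Where a gene had several probe sets, the one with the highest mean was read. Both samples were mouse induced pluripotent stem cells (iPSCs), which are reprogrammed somatic cells, grown in mouse embryonic stem cell medium with serum and 2i, inhibitors of the kinases MEK and GSK3 that keep such cells naive. One sample is labelled hybridized and the other live. The labels give neither what the cells were hybridized with, nor the cell line, its number of clones, its passage or the way it was reprogrammed. RNA extracted with Trizol LS was amplified, labelled with biotin and read on 1 array per sample, so values carry no replicate error, the samples cannot be tested against each other, and precision is limited by the number of arrays. Differences are given as hybridized minus live on the log2 scale, for these 2 arrays. Genes are called 2-fold higher, lower or apart where this difference reaches 1 in size. The genes were selected on the mean of the 2 arrays, so the number that reached the level is a description.

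Solute carriers are membrane proteins that move small molecules and ions across cell and organelle membranes, by facilitated diffusion or coupled to gradients of sodium, protons or a counter-substrate. The numbered families group proteins by sequence: Slc1, Slc6, Slc7 and Slc38 carry mainly amino acids, Slc2 sugars, Slc16 lactate and other monocarboxylates, and Slc25 forms the mitochondrial carrier family, most of whose members pass metabolites through the inner mitochondrial membrane. Pluripotent stem cells in culture take up glucose, glutamine, threonine and other amino acids at a high rate and release lactate, which makes the plasma membrane carriers of these substrates familiar genes in this cell type.

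The 9 pluripotency markers listed for a check of the labels were all at the level, between 8.79 and 13.17 in hybridized cells and between 8.94 and 13.14 in live cells, with none 2-fold apart. Markers of other cells were mixed. The 3 erythroid and 5 liver and kidney markers on the array lay between 1.95 and 3.68 in hybridized cells and between 1.87 and 3.81 in live cells. Col1a1 was the single fibroblast marker of 9 at the level, at 4.46 in hybridized cells and 6.17 in live cells. Pdgfrb read 3.62 and 5.22, and the other 7 differed by -0.69 (Thy1) to 0.19 (Col3a1). The 9 fibroblast values summed to 24.24 in hybridized cells and 28.69 in live cells on the log2 scale. Of 7 trophectoderm markers 4 were at the level: Tfap2c, also a germ cell factor, read 12.93 in hybridized cells and 12.24 in live cells, Krt18 8.01 and 7.30, Eomes 7.11 and 7.19, and Krt8 8.40 and 9.88, 2-fold lower in hybridized cells, with -1.32 on its second probe set. Cdx2, the defining trophectoderm factor, was under the level at 3.55 in hybridized cells and 2.74 in live cells. Of 6 neuron markers 1 was at the level, Tubb3, at 8.14 in hybridized cells and 9.67 in live cells, and the other 5 lay at or under 3.43 in both. Col1a1, Krt8 and Tubb3 were thus 2-fold lower in hybridized cells, while Krt18, Tfap2c and Cdx2 were higher there, by 0.71, 0.69 and 0.81. The part of other cell types in the solute carrier values was not tested. Both samples are bulk preparations, in which fewer cells of a type and less RNA per cell cannot be told apart.

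Of the 117 solute carriers, 11 were 2-fold higher in the hybridized sample, against a background of 8.43% of all genes compared, and 27 were 2-fold lower, against 15.4% of all genes. These are 9.4% and 23.1% of the solute carriers. The other 79 lay within 2-fold. The median solute carrier differed by -0.37 and the median of all 7262 genes by -0.165, so the solute carriers were 0.205 below the median gene; centred on the 18 hybridization control probe sets, which adds 0.80 to every difference, the solute carrier median became 0.43 and the split 39 higher against 5 lower. These are 33.3% and 4.27% of the solute carriers, against 31.8% and 2.84% of all genes with that centring. The 18 controls themselves differed by -1.22 to -0.15, with a median of -0.80, so a single shift does not describe each of them. Under that centring each single difference from -0.79 to -0.01 below changes sign. Relative to the median gene, 68 of the 117, or 58.1%, lay below it. The middle part of the distribution, between the quartiles, ran from -0.97 to 0.33 for solute carriers and from -0.71 to 0.35 for all genes.

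Of the 27 lower solute carriers, 14 had low values, between 5 and 7 on average over the arrays. They were 41.2% of the 34 solute carriers in that range, against 28.6% of its 1407 genes. Some of them, such as Slc2a8 at 4.93, were under 5 in the hybridized sample and reached the level through the live one. From 7 to under 9 the share was 18.4% (7 of 38) against 20.6% of all genes there. From 9 to under 11 it was 4 of 25 against 10.6% of all genes, and from 11 it was 2 of 20 against 3.48%. Solute carrier medians were -0.83 from 5 to under 7 and -0.585 from 7 to under 9, against -0.51 and -0.22 for all genes. They were 0.26 from 9 to under 11 and -0.115 from 11, against -0.07 and -0.06. From 9 to under 11 the solute carrier median was thus above that of all genes. Solute carriers also had lower values as a set, with a median of 7.995 for the mean of the arrays, against 9.195 for all genes. After a loess correction of the difference for level, 17 solute carriers were 2-fold lower, 14.5% of them against 9.75% of all genes, and their median was -0.14.

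**Figure D1:**
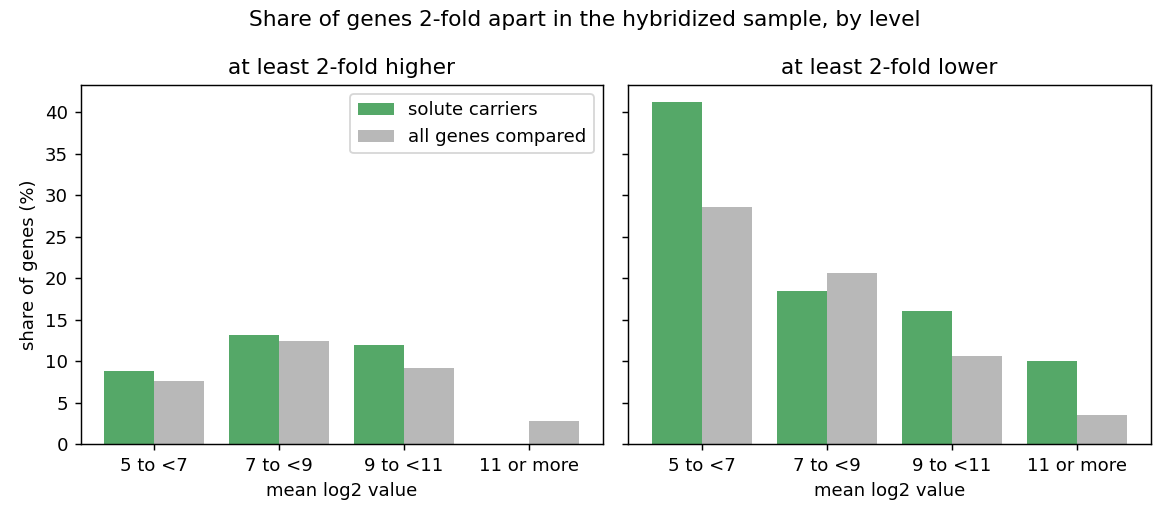
Share of genes 2-fold higher (left panel) and 2-fold lower (right panel) in the hybridized sample, in percent, by range of the mean log2 value; green bars are solute carriers and grey bars all genes compared. The tallest pair is the lower genes in the lowest range, at 41.2% of solute carriers and 28.6% of all genes.

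**Figure D2:**
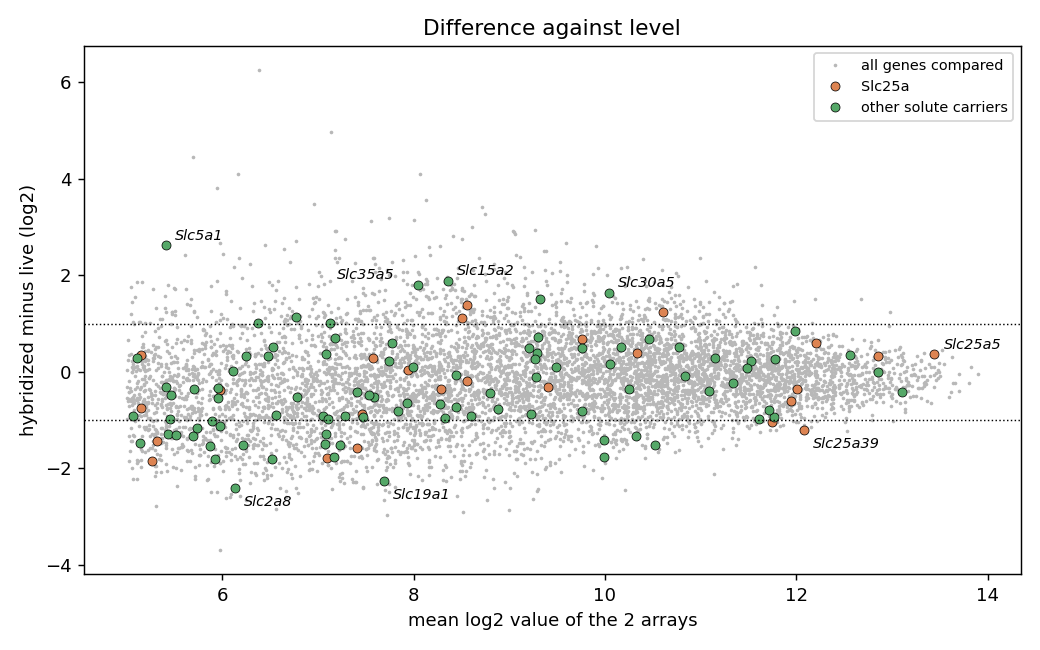
Hybridized minus live on the log2 scale (vertical axis) against the mean log2 value of the 2 arrays (horizontal axis), with all 7262 genes in grey, Slc25a genes in orange and the other solute carriers in green; dotted lines mark 2-fold. The differences of solute carriers run from -2.40 for Slc2a8 to 2.62 for Slc5a1 and narrow toward high values.

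Of 33 mitochondrial carriers of the Slc25 family on the array, 25 were at the level. In the hybridized sample 3 of these were 2-fold higher and 6 were 2-fold lower, against 8.43% and 15.4% of all genes. Their median difference was -0.31, which was -0.03 after the loess correction and 0.49 with control centring, where 10 were 2-fold higher and 1 lower, against 31.8% and 2.84% of all genes. Slc25a5 and Slc25a4 are the adenine nucleotide translocases, which exchange ADP for ATP. Slc25a5 read 13.63 in hybridized cells and 13.26 in live cells, and Slc25a4 read 12.51 and 11.91. The next probe sets of Slc25a4 differed by 0.27 and -0.24, so its sign was not settled. The 8 probe sets of Slc25a5 differed by -0.41 to 1.02, and the brightest has the suffix _x_at, which marks probes that can also match other sequences, so its value is uncertain. Slc25a3, the phosphate carrier that supplies ATP synthase, read 11.83 in hybridized cells and 12.19 in live cells. These 3 carriers of oxidative phosphorylation thus lay within 2-fold.

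The mitochondrial carriers of amino and organic acids come next. Slc25a22, a glutamate carrier, read 6.20 in hybridized cells and 7.99 in live cells, a difference of -1.79. Slc25a10, the dicarboxylate carrier, read 4.34 and 6.19, under the level in the hybridized sample. Slc25a13, the aspartate and glutamate carrier citrin of the malate-aspartate shuttle, read 11.22 in hybridized cells and 12.27 in live cells. In contrast Slc25a11, the oxoglutarate carrier of the same shuttle, differed by only -0.20 (8.46 against 8.66) and Slc25a15, the ornithine carrier, by 0.38 (10.53 against 10.15). Slc25a38, which carries glycine for haem synthesis, differed by -0.37, with 5.79 in hybridized cells and 6.16 in live cells.

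Carriers of cofactors and nucleotides differed in both directions. Slc25a39, needed for glutathione import into mitochondria, read 11.48 in hybridized cells and 12.69 in live cells, and its other probe sets differed by -0.70 and -0.96, so all 3 probe sets were lower in the hybridized sample. Slc25a51, the NAD carrier, read 11.23 and 9.98 on its brightest probe set, a difference of 1.25, but the second differed by -0.50 and the third by 0.02, so it was not repeated. Slc25a23, an ATP-magnesium and phosphate carrier that binds calcium, read 6.62 in hybridized cells and 8.20 in live cells. The pyrimidine nucleotide carriers Slc25a33 (7.02 against 7.90) and Slc25a36 (13.02 against 12.70) differed by -0.88 and 0.32. Slc25a42, the coenzyme A carrier, was under the level in the hybridized sample at 4.77, against 5.53 in the live sample. Slc25a26, which carries S-adenosylmethionine, was nearly equal at 7.96 in hybridized cells and 7.93 in live cells.

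The remaining members of the family covered iron, fatty acids, branched-chain amino acids and organelle shape. The mitoferrins Slc25a37 and Slc25a28, which import iron, differed by 0.28 and -0.31, and Slc25a20, the carnitine-acylcarnitine carrier of fatty acid oxidation, by -0.61 with -0.78 on its second probe set. Slc25a44, a carrier of branched-chain amino acids, read 9.07 in hybridized cells and 7.95 in live cells, with a smaller difference of 0.49 on its second probe set. Slc25a17, which lies in the peroxisome rather than the mitochondrion, had the highest difference of the family, 1.38 (9.25 against 7.87), with -0.19 on a probe set under the level. Slc25a46, an outer membrane protein of mitochondrial dynamics, differed by 0.68 and by 1.56 on its second probe set. Without these last 2 genes the family median was -0.35. Slc25a35, whose substrate is not well established, read 4.60 in hybridized cells and 6.03 in live cells, under the level in the hybridized sample. Slc25a14 and Slc25a30, both relatives of the uncoupling proteins, differed by -0.35 (8.11 against 8.46) and 0.34 (5.32 against 4.98). Another probe set of Slc25a30, with a mean under the level, read 5.50 in hybridized cells and 2.89 in live cells.

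**Figure D3:**
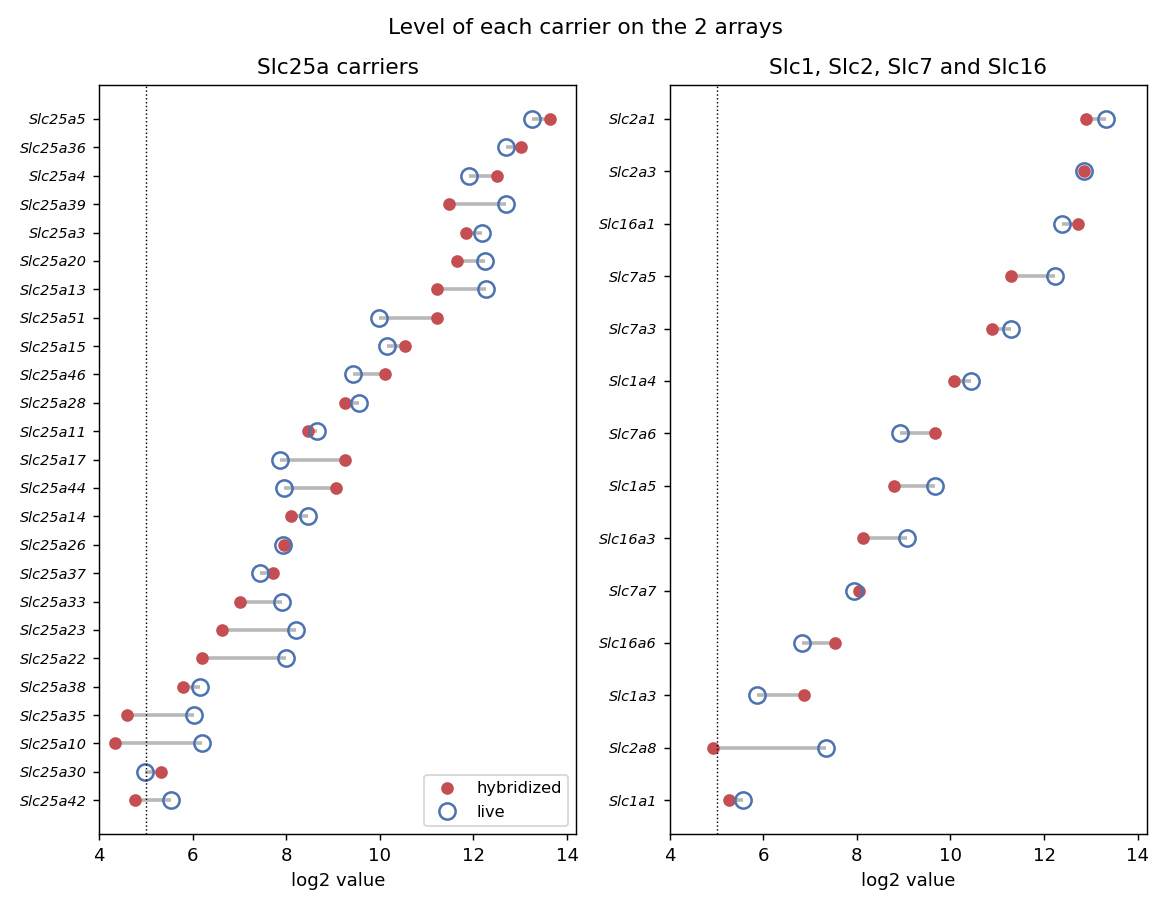
Log2 values (horizontal axis) in the hybridized sample (filled red) and the live sample (open blue) of the 25 Slc25a genes (left) and the 14 Slc1, Slc2, Slc7 and Slc16 genes (right), ordered by mean; the dotted line marks the level of 5. The longest bars are those of Slc25a10 (-1.85) on the left and Slc2a8 (-2.40) on the right, both with the hybridized sample lower.

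Across the plasma membrane families Slc1, Slc2, Slc7 and Slc16, 14 genes of 34 on the array were at the level, of which 1 was 2-fold higher and 1 was 2-fold lower, against 8.43% and 15.4% of all genes. Their median was -0.335, and 0.465 with control centring, where 4 were higher and 1 lower, against 31.8% and 2.84% of all genes. The Slc2 genes are facilitative glucose transporters. Slc2a1 (GLUT1) read 12.90 in hybridized cells and 13.32 in live cells, and its 3 probe sets differed by -0.42, -0.42 and -0.46. Slc2a3 (GLUT3) read 12.85 in both samples on its brightest probe set and differed by -0.54 on the second. Slc2a8 (GLUT8), a transporter held mainly inside the cell, was the lowest solute carrier of all, at 4.93 in hybridized cells and 7.33 in live cells, a 5.28-fold difference on its only probe set.

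The amino acid carriers of Slc1 and Slc7 stayed within 2-fold, with Slc1a3 as the exception. Slc7a5 (LAT1), the large neutral amino acid transporter, read 11.30 in hybridized cells and 12.23 in live cells. Its heavy chain Slc3a2 (CD98), which brings Slc7 transporters to the cell surface, read 11.13 and 12.10. The 2 subunits of this transporter thus differed by similar amounts, -0.93 and -0.97. Slc1a5 (ASCT2), a glutamine and neutral amino acid exchanger, read 8.79 in hybridized cells and 9.67 in live cells. Its relative Slc1a4 (ASCT1) differed by -0.36, with 10.07 in hybridized cells and 10.43 in live cells. Slc7a3 (CAT3), a cationic amino acid transporter, differed by -0.40 (10.89 against 11.29). The heterodimer partners Slc7a6 (y+LAT2) and Slc7a7 (y+LAT1) differed by 0.73 and 0.11, and the second probe set of Slc7a6 by 0.59. Slc1a3 (GLAST), a glutamate transporter, read 6.88 in hybridized cells and 5.87 in live cells, just 2-fold higher, but its other probe sets, both under the level, differed by -0.46 and -0.07. Slc1a1 (EAAT3), also a glutamate transporter, differed by -0.31 on its brightest probe set and 0.96 on the second.

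The monocarboxylate transporters, which carry lactate and pyruvate with a proton, were within 2-fold as deposited. Slc16a1 (MCT1) read 12.73 in hybridized cells and 12.39 in live cells. Slc16a3 (MCT4), known for lactate export in glycolytic cells, read 8.14 and 9.06. Slc16a6 read 7.53 and 6.83. The family median was 0.34 over 3 genes of 7 on the array, or 1.14 with control centring. With that centring 2 were 2-fold higher and none 2-fold lower, against 31.8% and 2.84% of all genes. After the loess correction 1 was 2-fold higher, against 11.5% of all genes.

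The mitochondrial family and the plasma membrane families had nearly the same median. The Slc25a median was 0.025 above that of Slc1, Slc2, Slc7 and Slc16, and over the alternatives run this gap lay between -0.25 (mean over a gene's probe sets) and 0.66 (second brightest probe sets, 9 and 5 genes). Both medians lay close to that of all genes, by -0.145 for Slc25a and -0.17 for the plasma membrane families. Genes 2-fold apart were 9 of 25 in Slc25a and 2 of 14 in the plasma membrane families, against 23.8% of all genes. The middle part of the differences, between the quartiles, ran from -0.88 to 0.37 and from -0.765 to 0.2825. The whole range was -1.85 to 1.38 and -2.40 to 1.01. With 1 array per group and different levels in the sets, the difference in count was not tested.

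Other carriers of amino acids and related compounds also lay mostly within 2-fold. Slc6a15, a neutral amino acid transporter, read 7.63 in hybridized cells and 6.62 in live cells, a difference of 1.01. Slc6a9 (GlyT1), a glycine transporter, differed by -0.92 (6.59 against 7.51), Slc6a8, the creatine transporter, by -0.82 (9.35 against 10.17) and Slc6a6, the taurine transporter, by 0.49 (10.01 against 9.52). Among the Slc38 family, Slc38a2 (SNAT2), a system A transporter, read 11.53 in hybridized cells and 11.45 in live cells. Slc38a1 (SNAT1) differed by -0.93 with 7.01 in hybridized cells and 7.94 in live cells. Slc38a4, another system A transporter and an imprinted gene, read 12.41 and 11.57, but its second probe set differed by -0.18. Slc38a10 differed by -0.79 on its brightest probe set and by -1.60 and -1.40 on the next ones. In the role group of 18 amino acid carriers, 2 were 2-fold higher and none 2-fold lower, against 8.43% and 15.4% of all genes, with a median of -0.335 as deposited and 0.465 with control centring, where 6 were higher and none lower, against 31.8% and 2.84% of all genes.

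Besides Slc2, the sugar group held Slc5 and Slc50 genes. Slc5a1 (SGLT1), the sodium-glucose cotransporter of gut and kidney, had the highest difference of all solute carriers: 6.72 in hybridized cells and 4.10 in live cells, a 6.15-fold difference, with the live value under the level. Its other probe set, with a mean under the level, read 3.84 in hybridized cells and 4.14 in live cells, so the difference was not repeated there. Slc5a6, a multivitamin transporter, differed by 0.33 (6.41 against 6.08) and Slc50a1, a sugar efflux transporter, by -0.53 (6.51 against 7.04).

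Carriers of inorganic ions were the role group with the most lower members. Of 11 genes, 7 were 2-fold lower and none 2-fold higher, 63.6% lower against 15.4% of all genes, with a median of -1.28, which stayed below 0 at -0.48 with control centring, where 1 was lower and 2 higher, against 2.84% and 31.8% of all genes. After the loess correction 3 of the 11 were 2-fold lower, against 9.75% of all genes. The mean values of the group had a median of 7.08. The potassium-chloride cotransporters, which let chloride and potassium out of the cell during volume regulation, were lower: Slc12a7 (KCC4) read 9.11 in hybridized cells and 10.87 in live cells, and Slc12a4 (KCC1) 5.11 and 6.64. The other probe set of Slc12a7, under the level, differed by -0.40. Slc12a9, an orphan of the Slc12 family, read 4.40 in hybridized cells and 5.88 in live cells. By contrast Slc12a2 (NKCC1), which brings sodium, potassium and chloride into the cell, read 11.64 and 11.41, with 0.17 on its second probe set. Bicarbonate carriers were represented by Slc4a2 (AE2), at 6.44 in hybridized cells and 7.72 in live cells, and Slc4a5, at 4.79 and 6.08. Slc9a8 (NHE8), a sodium-proton exchanger of the Golgi and the apical membrane, read 5.62 in hybridized cells and 7.42 in live cells, and Slc26a6, an anion exchanger, 5.15 and 6.32. The sulfate transporter Slc26a2 (7.85 against 7.63) and the phosphate transporters Slc20a1 (11.22 against 11.45) and Slc20a2 (8.08 against 8.81) lay within 2-fold. All 7 of the lower genes were 2-fold apart on the brightest probe set, and for none of them did a second probe set reach the level. Slc12a9 and Slc4a5 were under 5 in the hybridized sample and reached the level through the live one.

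Fatty acid and organic ion carriers were all below 0 as deposited, and all but Slc22a5 with control centring. Of 8 genes, 4 were called lower by 2-fold, against 15.4% of all genes and 28.6% of those averaging from 5 to under 7. None was with control centring, against 2.84% of all genes. The median was -1.0, or -0.20 with that centring. The fatty acid transport proteins, which activate long-chain fatty acids with coenzyme A as they enter the cell, were 4 of these 8. Slc27a4 read 6.29 in hybridized cells and 8.05 in live cells, Slc27a1 4.85 and 6.17, Slc27a3 5.38 and 6.40, and Slc27a2 7.43 and 8.24. Slc27a1 was thus under the level in the hybridized sample. Slc10a3, of the bile acid transporter family, read 5.42 in hybridized cells and 6.54 in live cells. Slc33a1, the acetyl coenzyme A transporter of the endoplasmic reticulum, differed by -0.90 (6.11 against 7.01). Slc22a17, a receptor for lipocalin, differed by -0.98 (4.96 against 5.94) and Slc22a5 (OCTN2), the carnitine transporter, by -0.49 (5.22 against 5.71). Values in this group were low, with a median mean of 5.94, and after the loess correction 1 gene was 2-fold lower.

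Among 8 carriers of vitamins and choline, 3 were 2-fold lower and none 2-fold higher, against 15.4% and 8.43% of all genes, with a median of -0.84, or -0.04 with control centring, where 1 was lower and 2 higher, against 2.84% and 31.8% of all genes. Slc19a1, the reduced folate carrier, had the largest difference that a second probe set repeated: it read 6.55 in hybridized cells and 8.82 in live cells on its brightest probe set, 6.52 and 8.81 on the second, and 5.38 and 6.98 on the third. Every one of its 3 probe sets was at least 3-fold lower in hybridized cells. Slc46a1, the proton-coupled folate transporter, differed by -0.91 and by -1.0 on its second probe set. Slc19a2, a thiamine transporter of the same family as Slc19a1, read 11.30 in hybridized cells and 11.01 in live cells. Slc52a3, a riboflavin transporter, read 6.47 and 7.98. The thiamine and riboflavin carriers thus differed in opposite directions. Slc23a2, a sodium-coupled vitamin C transporter, read 8.50 in hybridized cells and 9.27 in live cells. Slc44a2, a choline transporter-like protein, read 9.66 and 10.99 on an _x_at probe set, with a difference of -0.22 on the second, and Slc44a1, the best known choline transporter of this family, read 11.91 and 11.65. Slc44a4 differed by -0.36 (5.52 against 5.88).

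Few metal ion carriers differed. Of 20 genes, 1 was 2-fold higher and none 2-fold lower, 5.0% apart against 23.8% of all genes, and the median was 0.06. With control centring the median was 0.86, and 9 were higher and none lower, against 31.8% and 2.84% of all genes. The exporter and vesicle zinc transporters of the Slc30 family had a median of 0.26 over 7 genes, and the zinc importers of the Slc39 family -0.265 over 8 genes. With control centring these medians became 1.06 and 0.535. Slc30a5 (ZnT5), which loads zinc into the secretory pathway, was the 2-fold member, at 10.86 in hybridized cells and 9.22 in live cells on its only probe set. Slc30a9 read 9.49 and 9.09, Slc30a6 9.40 and 9.14, and Slc30a1 (ZnT1), the plasma membrane zinc exporter, 6.64 and 6.31. All 3 of these were slightly higher in hybridized cells. Slc30a4 differed by 0.01, Slc30a7 by -0.42 and Slc30a2 by -0.52. Among the importers, Slc39a1 read 10.79 in hybridized cells and 10.88 in live cells, Slc39a7 9.54 and 9.43, and Slc39a9 8.41 and 8.48. Slc39a6 differed by 0.49 and Slc39a14, which also carries iron, by -0.44. These 5 importers lay within 2-fold. The lowest were Slc39a11 at -0.96 (7.85 against 8.81), Slc39a13 at -0.91 (4.61 against 5.52) and Slc39a4 at -0.65 (7.60 against 8.25). The copper transporter Slc31a1 (CTR1) read 10.80 in hybridized cells and 10.12 in live cells, with -0.15 on its second probe set, and Slc31a2 differed by 0.37. The magnesium transporter Slc41a1 read 10.42 and 9.91. The proton-coupled metal transporters Slc11a2 (DMT1) and Slc11a1 differed by 0.52 and -0.11.

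Nucleoside and nucleotide sugar carriers were split, with 2 of 9 called 2-fold higher and 4 called 2-fold lower, against 8.43% and 15.4% of all genes, around a median of -0.49, or 0.31 with control centring. The equilibrative nucleoside transporter Slc29a1 (ENT1) read 8.07 in hybridized cells and 7.47 in live cells, whereas Slc29a2 (ENT2) read 5.02 and 6.82 and Slc29a4 5.03 and 6.36. The family was thus split by member. Slc29a3 (ENT3), of the lysosome, read 10.13 and 9.97. The Slc35a genes carry nucleotide sugars into the Golgi for glycosylation. Slc35a2, the UDP-galactose transporter, read 9.77 in hybridized cells and 11.28 in live cells, but its other probe sets, all under the level, differed by 0.74, 0.10 and 0.04. Slc35a4 read 9.28 and 10.69 on an _x_at probe set, and its second probe set differed by -1.96. Slc35a3, the UDP-N-acetylglucosamine transporter, read 7.34 in hybridized cells and 6.20 in live cells. Slc35a5 read 8.95 and 7.14, with 0.54 on its second probe set. Slc35a1, the CMP-sialic acid transporter, differed by -0.49 on the brightest and by 1.42 on the second probe set, so its sign was not settled.

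Of 7 carriers of peptides, sugar phosphates and haem, plotted as vesicular and endosomal, 2 were 2-fold higher and none 2-fold lower, against 8.43% and 15.4% of all genes, with a median of -0.34 as deposited, 0.16 after the loess correction and 0.46 with control centring. Slc15a2 (PEPT2), a proton-coupled peptide transporter, read 9.30 in hybridized cells and 7.41 in live cells, with -0.03 on a probe set under the level, and its relative Slc15a1 (PEPT1) read 11.03 and 10.52. Slc15a4, a lysosomal peptide and histidine transporter, read 7.94 and 8.61. Slc37a3 read 10.08 in hybridized cells and 8.57 in live cells, but its second probe set differed by -0.17. Slc37a4, the glucose 6-phosphate translocase of the endoplasmic reticulum, differed by -0.34 (5.78 against 6.12), Slc37a1 by -0.54 (5.68 against 6.22) and Slc48a1, a haem transporter, by -0.97 (6.62 against 7.59). Outside these role groups, both Slc66 genes at the level were 2-fold lower. Slc66a1, a lysosomal exporter of cationic amino acids, read 6.32 in hybridized cells and 7.82 in live cells. Slc66a2, of the same family, read 5.46 and 6.98, with -0.35 on its second probe set.

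**Figure D4:**
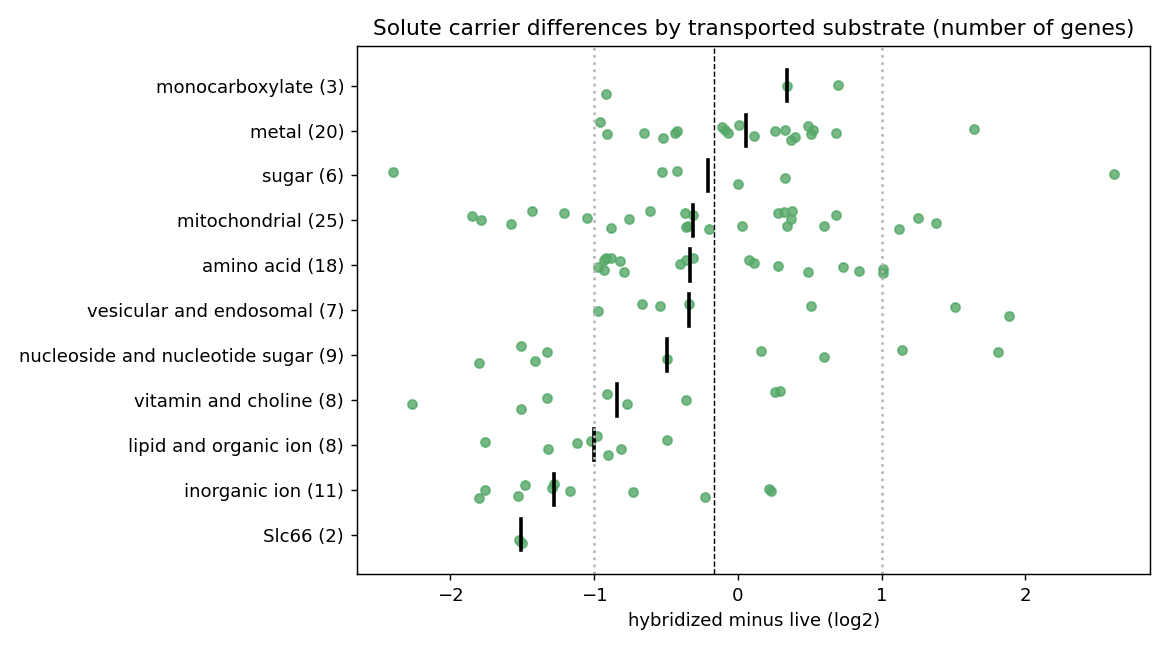
Hybridized minus live on the log2 scale (horizontal axis) of each solute carrier at the level, by role group with the number of genes; black bars are group medians, the dashed line the median of all genes (-0.165) and dotted lines 2-fold. Inorganic ion carriers (-1.28) and lipid and organic ion carriers (-1.0) have medians below 0 under each centring run. So do vitamin and choline carriers (-0.84, and -0.04 with control centring) and the Slc66 genes (-1.51). Metal carriers have a median of 0.06.

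Promoters of the solute carriers were searched for short motifs, with the 2-fold members counted apart. RefSeq promoter entries (build GRCm38.p6) matched 90 of the 117 genes with 126 entries, and the 250 bases before each start were searched on both strands for CACGTG, the E-box hexamer that Myc, USF and TFE family factors can bind, and for 3 other motifs. CACGTG was in 4 of 9 entries of the 2-fold higher solute carriers, in 4 of 31 entries of the lower ones and in 13.5% of all entries of solute carriers. Among all genes compared 8.79% of entries held it, and 6.02% of all 32851 entries in the table. The 9 entries belong to 8 genes, the motif was singled out after the values were seen, and a match is not a site. The calls of the 4 higher genes with the motif are themselves uncertain. Slc5a1 was under the level in the live sample, at 4.10. On the second probe set Slc37a3 differed by -0.17 and Slc35a5 by 0.54, and Slc30a5 had 1 probe set. The amino acid response motif TGATGNAAN was in 3 of 126 entries (2.38% against 1.82% for all genes compared), in Slc7a7 and Slc50a1 and in no 2-fold member. The antioxidant response motif TGACNNNGC was in 18.3% of entries against 11.6%, with 8 of 25 entries in the Slc25a genes, but in 0 of 9 entries of the 2-fold higher and 4 of 31 of the lower solute carriers. The palindromic NRF1 core motif was in 1 entry, that of Slc33a1.

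The promoters of the 4 higher genes that hold CACGTG are printed first because they are the ones behind that count, followed by those of Slc12a7 and Slc27a1, lower genes of the potassium-chloride and fatty acid families that hold it too. Capitals mark CACGTG, and each sequence is the 250 bases before the start, read 5′ to 3′ on the gene's strand. In the order printed they are chr5:33103969-33104218 on the plus strand, chr13:100833428-100833677 on the minus strand, chr16:45158674-45158923 on the minus strand, chr6:39377708-39377957 on the minus strand, chr13:73763447-73763696 on the plus strand and chr8:71570344-71570593 on the plus strand. The motif begins 143 bases before the start in Slc5a1, 61 in Slc30a5, 90 and 67 in Slc35a5, 13 in Slc37a3, 38 in Slc12a7 and 202 in Slc27a1.
Slc5a1: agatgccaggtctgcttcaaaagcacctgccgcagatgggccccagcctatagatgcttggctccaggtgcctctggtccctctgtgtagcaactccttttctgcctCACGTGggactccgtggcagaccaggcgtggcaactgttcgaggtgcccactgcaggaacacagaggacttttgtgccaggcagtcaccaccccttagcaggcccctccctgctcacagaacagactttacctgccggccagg
Slc30a5: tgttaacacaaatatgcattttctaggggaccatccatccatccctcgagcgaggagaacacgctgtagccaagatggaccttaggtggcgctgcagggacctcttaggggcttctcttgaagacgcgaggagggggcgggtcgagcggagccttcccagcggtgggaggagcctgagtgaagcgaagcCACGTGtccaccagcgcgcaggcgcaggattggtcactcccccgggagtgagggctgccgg
Slc35a5: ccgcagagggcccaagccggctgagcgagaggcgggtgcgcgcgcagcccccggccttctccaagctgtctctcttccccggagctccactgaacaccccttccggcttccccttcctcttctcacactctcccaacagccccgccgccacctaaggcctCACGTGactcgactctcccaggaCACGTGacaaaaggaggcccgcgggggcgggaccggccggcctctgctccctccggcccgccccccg
Slc37a3: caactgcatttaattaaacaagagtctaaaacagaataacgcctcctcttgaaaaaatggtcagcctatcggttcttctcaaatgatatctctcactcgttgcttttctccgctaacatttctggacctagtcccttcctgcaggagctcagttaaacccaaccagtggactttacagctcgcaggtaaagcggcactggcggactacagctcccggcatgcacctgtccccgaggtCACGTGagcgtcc
Slc12a7: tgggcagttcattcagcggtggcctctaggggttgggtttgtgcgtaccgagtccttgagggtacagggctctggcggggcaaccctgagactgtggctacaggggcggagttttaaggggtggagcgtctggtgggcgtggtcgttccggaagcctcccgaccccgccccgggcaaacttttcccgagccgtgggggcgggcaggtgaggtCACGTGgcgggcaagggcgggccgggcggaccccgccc
Slc27a1: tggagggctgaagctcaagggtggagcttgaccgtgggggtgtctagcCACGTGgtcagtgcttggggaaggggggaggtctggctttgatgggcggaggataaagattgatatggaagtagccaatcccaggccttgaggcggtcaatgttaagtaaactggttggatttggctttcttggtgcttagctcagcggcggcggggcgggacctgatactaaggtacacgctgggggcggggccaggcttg

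How far a difference held within the arrays could be read from genes with a second probe set. Of the 117 genes, 63 had 1 probe set, and for 31 another probe set also reached the level. The sign was the same on both for 23 of the 31. Of 9 genes that were 2-fold apart on the brightest probe set, 2, Slc19a1 and Slc35a4, repeated this on the second with the same sign, against 36.1% of the 545 such genes in the series, and 7 had the same sign. The other 2, Slc25a51 and Slc37a3, had the opposite sign. For the remaining 29 of the 38 members no second probe set reached the level. The median size of the gap between the 2 probe sets was 0.51 for solute carriers and 0.60 for all 2720 genes with such a pair. Probe sets of a gene share the array and the RNA, so the gap covers no preparation or biological error. For 12 of the 117 genes 1 array was under the level, 9 times the hybridized and 3 times the live one.

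**Figure D5:**
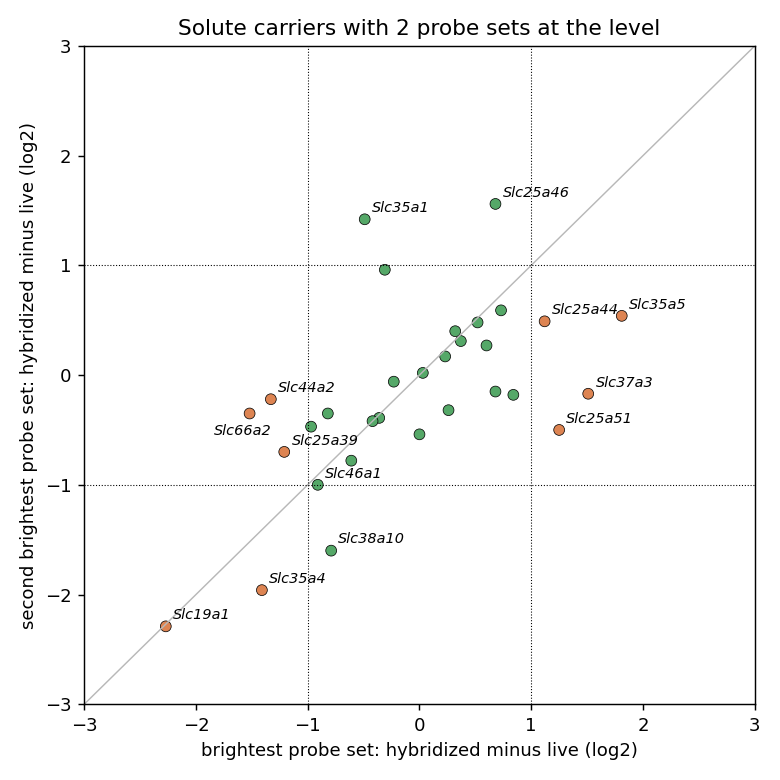
Hybridized minus live on the log2 scale at the second brightest probe set (vertical axis) against that at the brightest (horizontal axis) for the 31 solute carriers with both at the level; orange points are 2-fold apart on the brightest, the grey line is equality and dotted lines mark 2-fold. Slc19a1 (-2.27 and -2.29) and Slc35a4 (-1.41 and -1.96) lie beyond 2-fold on both axes, while Slc37a3 and Slc25a51 lie right of 0 and below it.

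Transport genes outside the symbol rule, taken from lists written with the design, gave the following. Of all genes, 8.43% were 2-fold higher and 15.4% 2-fold lower, and the counts of these small lists were not tested against that. Of 13 other mitochondrial membrane transport genes on the array 10 were at the level, with 2 called 2-fold higher, 1 called 2-fold lower and a median of -0.11. Mtch2, an outer membrane insertase related to the Slc25 family, read 12.68 in hybridized cells and 11.66 in live cells, Letm1, of mitochondrial ion balance, 7.64 and 6.59, and Mtch1 7.75 and 9.26. The pyruvate carrier subunit Mpc1 differed by 0.81, and the channel Vdac1 by -0.08. Of 9 plasma membrane partners and regulators, all at the level, 1 was 2-fold lower and the median was -0.03. Bsg, the chaperone of Slc16a1 and Slc16a3, read 10.76 in hybridized cells and 10.32 in live cells, and the sodium pump subunit Atp1b2 read 7.41 and 8.58. Txnip, a glucose-responsive arrestin that removes Slc2a1 from the surface, read 12.39 and 12.11 on its brightest probe set but differed by 3.65 on its second. Of 36 ABC transporters 17 were at the level, with 1 higher and 4 lower, against 8.43% and 15.4% of all genes. Of 11 Slco genes, the organic anion transporters, 1 was at the level.

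The 121 solute carriers under the level include many with a known home in other organs, and 75 of them had a mean under 3, where values have no order. Slc4a1, the anion exchanger of red cells, read 3.68 in hybridized cells and 3.81 in live cells, Slc32a1, of inhibitory neurons, 3.43 and 3.24, and Slc34a1, of the kidney, 2.17 and 2.37. Of 18 Slc22 genes 16 were under the level, as were 9 of 13 in Slc6 and in Slc7, whereas every gene of Slc35a, Slc29, Slc3, Slc20, Slc31 and Slc11 on the array was at it. Slc7a11, the cystine transporter, read 2.06 in hybridized cells and 2.55 in live cells, and Slc7a1 2.73 and 2.56. Just inside the limit were Slc39a13, Slc3a1 and Slc12a9, with means of 5.07, 5.11 and 5.14, and just outside it Slc22a23, Slc22a7 and Slc5a11, with 4.92, 4.90 and 4.87.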

How the data were processed

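Polyadenylated RNA of 1 hybridized and 1 live iPSC sample was amplified with the NuGEN Ovation system, per the labels. GCRMA and affy were the tools named in the submitters' processing notes; their versions are not stated in these sources. The deposited values, 1 for each probe set on each array, were taken as log2 from the authors' processing; the log base was inferred from the method and the range of 1.02 to 14.24. GCRMA removes a background that depends on probe sequence, puts arrays run together on a shared scale and combines the probes of a set. Low values are therefore compressed. Which arrays were normalized together here is not known. Values of different probe sets are not comparable as transcript amounts.

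Of 22690 probe sets, 20380 carry 1 gene of the platform annotation and were used; 691 with several genes, 1555 unnamed here and 64 controls were left out. Of these 20380, 378 belong to solute carriers. All 117 symbols matched RefSeq (GRCm38.p6) through Entrez IDs. The probe set with the highest mean stood for a gene, at a mean of at least 5. With 1 array per group there was no model and no p-value. Members, role groups and lists were chosen with earlier results of these data known. Genes named were all of Slc25, Slc1, Slc2, Slc7 and Slc16 at the level, every 2-fold member, the 3 with the highest mean and the 3 highest and lowest differences per role group, and those next to the limit; others were named after their values were seen. Counting was tested on simulated data with planted differences beyond the threshold and little noise, which does not measure how reliable the calls are. Alternatives were other level limits (4, 7, none, or 5 on each array), other probe set choices, centrings, loess (span 0.3), quantile normalization and folds of 1.5 and 4; the Slc25a set without 2 members was added after seeing the data. Python 3.11.15, numpy 2.4.6, pandas 2.3.3, statsmodels 0.14.6 and matplotlib 3.10.9 were used.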

Additional observations from a re-analysis of the deposited data

How the results depend on the processing

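No paired analysis was possible because each group has 1 array and no test was run. With 1 array per group no array could be left out. A count is compared within 1.5 times, and a median against the error that the gap between probe sets gives it (0.0841 for all solute carriers, 0.18 for Slc25a, 0.24 for Slc1, Slc2, Slc7 and Slc16). This error uses the gap over all genes and takes genes as independent, so it is a yardstick for the alternatives only. It covers no shift shared by a whole array, such as the 0.80 of control centring.

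The count of 11 higher solute carriers was 4 with a gene's probe sets averaged, 2 on second probe sets, 39 with control centring, 18 at 1.5-fold and 1 at 4-fold. The count of 27 lower was 13 at a level of 7, 17 after loess, 4 on second probe sets, 5 with control centring, 49 at 1.5-fold and 2 at 4-fold. The solute carrier median of -0.37 was -0.23 at a level of 7, -0.17 with no limit, -0.18 on second probe sets, -0.205 after median centring, -0.14 after loess and 0.43 with control centring. The Slc25a median of -0.31 was -0.085 at a level of 7, 0.27 on second probe sets, -0.0344 after loess and 0.49 with control centring. The median of -0.335 for Slc1, Slc2, Slc7 and Slc16 was -0.0566 with probe sets averaged, -0.0823 after loess and 0.465 with control centring. The gap between the 2 medians, 0.025, was 0.66 on second probe sets. A level limit of 7 and the second probe sets test fewer genes (83 and 31); the cause of the other changes was not tested. The split of higher among 2-fold solute carriers was 28.9% as deposited (35.4% for all genes), 41.4% after loess (54.2%), 14.8% with probe sets averaged (43.3%) and 88.6% with control centring (91.8%). Of 38 2-fold members, 35 kept the call after median centring, 37 after quantile normalization, 28 after loess, 26 with probe sets averaged and 14 with control centring. Among 1133 values of the 117 genes under alternatives, 3 changed the sign of a 2-fold difference: Slc25a51 was -0.50 on its second probe set, and Slc37a3 -0.17 both there and without suffixed probe sets.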
